A study of Mus musculus with 12 samples.

Results

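Matrix proteoglycans and glycoproteins were followed in mouse liver as 10 named genes: Lum, Dcn, Bgn, Mgp, Fbn1, Fn1, Sparc, Efemp1, Ecm1 and Vcan. Members were all probe sets whose single gene symbol, current or earlier, is 1 of these. The rule found 15 of the 22690 probe sets of the array, and they belong to 9 of the 12393 genes the array names. Of these, 12 probe sets of 8 genes were bright enough to be tested, against 12977 probe sets in all. No probe set carried the symbol of Fbn1, which encodes the microfibril protein fibrillin-1, so it was not analysed here.

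Liver RNA from 12 male mice was hybridised to Affymetrix MOE430A arrays, 1 array per mouse, with 3 mice in each of 4 groups. KO_3M and KO_12M mice were homozygous for the Mdr2 knockout and were 3 and 12 months old, and Het_3M and Het_12M mice of the same ages were heterozygous for it. All 12 animals therefore carried at least 1 knocked-out allele, and there was no wild-type group. Mdr2, now named Abcb4, encodes the canalicular transporter that brings phosphatidylcholine into bile, and its loss in mice leads to bile duct injury, fibrosis and later liver tumours. For mouse 1 in each of the 3-month groups, the source label states an age of 12 months while the title and age field state 3 months, and the titles were followed.

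Proteoglycans are core proteins that carry glycosaminoglycan chains. Small leucine-rich members such as lumican, decorin and biglycan sit on collagen fibrils, shape their assembly and bind growth factors. Among the glycoproteins, fibronectin links cells to the matrix, and SPARC modulates how cells attach to it. In injured liver most of these proteins are made by stellate cells and portal fibroblasts, whereas plasma fibronectin comes mainly from hepatocytes.

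Values are MAS 5.0 signals on a linear scale, which cannot be compared between probe sets. Fold changes are limma estimates of log2(signal + 16) with their standard error, and calls were made where the Benjamini-Hochberg adjusted p, over all tested probe sets, was under 0.05. The Abcb4 probe set had a mean signal of 723 ± 43.0 (SD, n = 3) in Het_3M and 321 ± 56.8 in KO_3M. At 12 months its means were 623 ± 45.8 in Het_12M and 290 ± 44.5 in KO_12M, so every knockout array was below every heterozygous array. Whether this probe set lies in the deleted stretch is not known from the sources used here, so it is a limited check of the labels. Hepatocyte markers were bright on all arrays, with a summed signal of 32483 to 61790 over 10 genes. The arrays were scanned in 3 runs on the same day, and no run held both genotypes at the same age. For the actin control, 3′ signal over 5′ signal (higher where RNA is less intact) averaged 7.0 ± 1.64 in Het_3M against 4.92 ± 1.59 in KO_3M, and 3.64 ± 0.564 in Het_12M against 2.79 ± 0.436 in KO_12M.

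The promoters of Bgn and Sparc, which rose in knockout livers, and of Ecm1, which fell, are shown so that the upstream sequence can be set beside the values that follow. Each is the 250 bases before the annotated start in the RefSeq annotation of GRCm38.p6, read 5′ to 3′ on the gene's strand. Bgn lies on the plus strand at chrX:73483351-73483600, Sparc on the minus strand at chr11:55420081-55420330, and Ecm1 on the minus strand at chr3:95739570-95739819. No promoter sequence was available for Lum, Dcn, Mgp or Fn1, and those of Fbn1, Efemp1 and Vcan are not shown. Capitals mark matches on either strand to 4 short motifs. These are the TATA box searched as TATAAA, the AP-1 site searched as TGANTCA, the GC box searched as GGGCGG, and a SMAD-binding element searched as CAGACA.
Bgn: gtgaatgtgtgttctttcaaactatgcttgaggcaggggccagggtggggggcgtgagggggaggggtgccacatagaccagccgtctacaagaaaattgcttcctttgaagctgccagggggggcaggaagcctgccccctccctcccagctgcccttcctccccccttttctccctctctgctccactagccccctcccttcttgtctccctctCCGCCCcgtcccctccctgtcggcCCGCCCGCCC
Sparc: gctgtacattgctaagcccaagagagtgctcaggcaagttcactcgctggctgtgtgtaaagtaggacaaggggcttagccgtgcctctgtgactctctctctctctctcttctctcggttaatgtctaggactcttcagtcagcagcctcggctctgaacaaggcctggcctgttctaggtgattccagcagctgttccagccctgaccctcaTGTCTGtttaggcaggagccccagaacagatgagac
Ecm1: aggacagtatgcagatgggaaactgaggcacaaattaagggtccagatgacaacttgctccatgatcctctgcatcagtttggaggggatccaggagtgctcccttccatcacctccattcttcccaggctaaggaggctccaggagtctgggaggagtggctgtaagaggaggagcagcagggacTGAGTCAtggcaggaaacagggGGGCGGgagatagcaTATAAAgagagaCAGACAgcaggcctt

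Bgn held 3 matches to GGGCGG, all read as CCGCCC, and the 2 nearest to the start overlapped each other. Sparc held 1 match, to CAGACA, at -36 to -31. Ecm1 matched all 4 motifs, with the TATA box at -27 to -22, the GC box at -42 to -37, the AP-1 letters at -64 to -58 and the SMAD letters at -15 to -10. Among 32851 promoter windows of the same length, the TATA letters were found in 12.4%, the AP-1 letters in 6.75%, the GC box in 32.7% and the SMAD letters in 17.1%. No motif was shared by all 3 promoters, and a match describes the letters and not a bound site.

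Lumican, decorin, biglycan, matrix Gla protein and SPARC were higher in knockout than in heterozygous livers at both ages, lumican most among the leading probe sets, at about 4 times the heterozygous signal. Extracellular matrix protein 1 went the other way and was called lower at 12 months. The main fibronectin probe set was bright in all livers and was not called at either age. At 3 months 8 of the 12 tested probe sets, of 5 genes, were called higher and 0 lower, where 9.55% of all tested probe sets were called higher, 11.6% lower and 21.2% in either direction. With each array scaled to 1 median, 15.5% of all tested probe sets were called higher and 21.7% in either direction, and 9 of the 12 members were called. At 12 months 7 were called higher, of the same 5 genes, and 1 lower, against 5.86% and 3.6% of all tested probe sets, or 9.46% in either direction. The median log2 fold change of the 12 was 1.06 at 3 months, against -0.06 over all tested probe sets, and 0.86 at 12 months, against -0.00. All 3 knockout arrays were above all 3 heterozygous arrays for 9 of the 12 at 3 months (16.4% of all tested probe sets) and for 8 at 12 months (14.7%), and all were below for 1 at each age (23.3% and 13%). Efemp1, 1 of the 8 at 12 months, was tested only because knockout arrays passed the filter on dim probe sets, which held for no other of the 12. In whole liver tissue, more matrix-producing cells and more RNA per cell cannot be told apart.

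**Figure D1:**
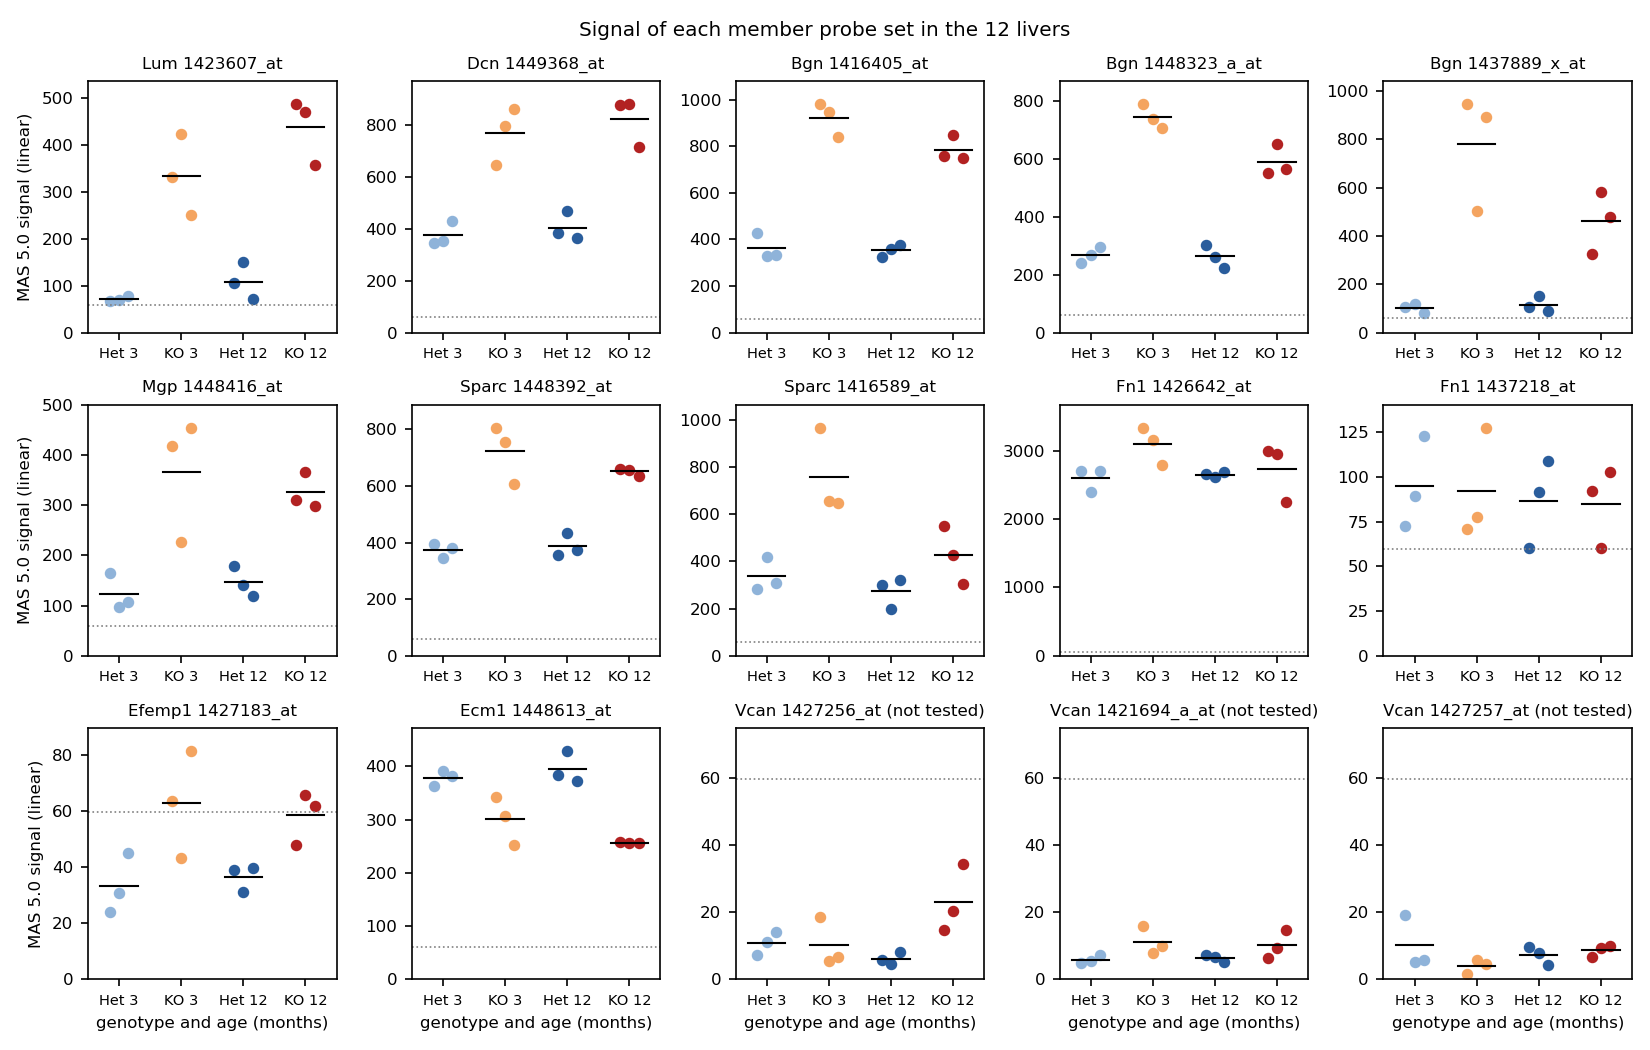
MAS 5.0 signal (linear axis, from 0) of the 15 member probe sets in the 12 livers, by genotype and age in months. Points are single mice, horizontal bars are group means (n = 3) and the dotted line is the mean of the arrays' median signals. The knockout points of Lum, Dcn, Bgn, Mgp and Sparc 1448392_at lie above all heterozygous points of the same age, and the Vcan points all lie under the dotted line.

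Lumican (Lum, 1423607_at), a keratan sulfate proteoglycan that regulates collagen fibril diameter, read 68.0, 69.3 and 78.4 in Het_3M livers and 331.3, 423.3 and 250.4 in KO_3M livers. In the older livers it read 105.8, 149.6 and 71.7 in Het_12M and 486.9, 471.0 and 358.5 in KO_12M. The groups did not overlap at either age, and the lowest knockout liver was still well above the highest heterozygous one. The mean signal was 4.66 times higher at 3 months and 4.02 times higher at 12 months. The log2 fold changes were 1.97 ± 0.22 (limma adjusted p = 1.93e-05) and 1.90 ± 0.22 (adjusted p = 3.89e-05). Het_12M mouse 3, at 71.7, lay within the Het_3M range, and the other two Het_12M mice lay above it.

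Decorin (Dcn, 1449368_at), which binds collagen and transforming growth factor beta, read 347.0, 352.8 and 428.4 in Het_3M and 646.9, 797.7 and 863.7 in KO_3M. In the older mice it read 383.9, 467.3 and 364.1 in Het_12M and 876.2, 879.8 and 713.6 in KO_12M. Its rise was the same at both ages to 2 decimals, 1.00 ± 0.15 at 3 months (adjusted p = 0.000258) and 1.00 ± 0.15 at 12 months (adjusted p = 0.000392). Dcn and Lum are neighbours in the annotation, followed by the leucine-rich proteoglycan genes Kera and Epyc. Neither Kera, with signals of 1.2 to 12.1 over the 12 arrays, nor Epyc, with 15.3 to 79.2, was bright enough to be tested.

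Biglycan (Bgn) is the close relative of decorin that, once released from the matrix, is known to signal through Toll-like receptors. It has 3 probe sets, and all were called higher at both ages. The leading one, 1416405_at, read 429.8, 329.1 and 333.5 in Het_3M and 980.2, 949.4 and 838.7 in KO_3M. It read 325.8, 358.2 and 377.3 in Het_12M and 758.9, 849.1 and 749.7 in KO_12M. The log2 fold changes were 1.31 ± 0.13 (adjusted p = 7.11e-06) and 1.12 ± 0.13 (adjusted p = 4.79e-05), with no overlap between genotypes.

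The other biglycan probe sets differed in size of change but not in direction. 1448323_a_at ranged from 240.4 to 294.1 in Het_3M against 706.0 to 787.2 in KO_3M, and from 223.9 to 303.9 in Het_12M against 550.0 to 649.2 in KO_12M, with changes of 1.43 ± 0.14 (adjusted p = 4.07e-06) and 1.12 ± 0.14 (adjusted p = 5.77e-05). 1437889_x_at read 104.8, 119.8 and 81.2 in Het_3M, and 944.2, 503.4 and 892.4 in KO_3M. It read 106.4, 150.6 and 89.7 in Het_12M, and 323.6, 579.6 and 477.6 in KO_12M. Its changes, 2.72 ± 0.25 (adjusted p = 2.68e-06) and 1.84 ± 0.25 (adjusted p = 0.000158), exceeded those of the other two at both ages. The x in its name marks a probe set that may also bind other transcripts, so its size of change is less certain.

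Matrix Gla protein (Mgp, 1448416_at), a vitamin K-dependent inhibitor of calcification, read 164.2, 97.0 and 106.4 in Het_3M and 418.6, 226.4 and 454.9 in KO_3M. It read 179.2, 141.2 and 119.1 in Het_12M and 311.2, 366.5 and 298.8 in KO_12M. The genotypes did not overlap at either age, although the KO_3M mice spread widely, with mouse 2 near the heterozygous range. The changes were 1.44 ± 0.23 (adjusted p = 0.000552) and 1.08 ± 0.23 (adjusted p = 0.007).

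SPARC, a collagen-binding glycoprotein that modulates how cells attach to the matrix, has 2 probe sets, which read higher in knockout livers at both ages and of which 1 was called at 12 months. The leading one, 1448392_at, read 394.8, 345.3 and 381.2 in Het_3M and 806.0, 753.5 and 605.5 in KO_3M. It read 357.7, 434.3 and 372.0 in Het_12M and 661.4, 657.3 and 635.7 in KO_12M. It rose by 0.91 ± 0.13 (adjusted p = 0.000192) and 0.73 ± 0.13 (adjusted p = 0.00186), with no overlap.

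The second Sparc probe set, 1416589_at, read 284.4, 417.0 and 310.6 in Het_3M and 967.7, 654.6 and 649.1 in KO_3M. It read 299.7, 200.0 and 319.9 in Het_12M and 552.4, 425.5 and 303.0 in KO_12M, where KO_12M mouse 3 fell inside the heterozygous range. It rose at 3 months by 1.12 ± 0.23 (adjusted p = 0.00266), but was not called at 12 months, at 0.60 ± 0.23 (adjusted p = 0.113, 95% interval 0.12 to 1.08). The 3-month call was lost without both mice of conflicting source label (0.83, adjusted p = 0.0515). The 12-month difference was called without KO_12M mouse 3 (0.82, adjusted p = 0.0432).

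Extracellular matrix protein 1 (Ecm1, 1448613_at), a secreted glycoprotein that in mouse liver is known to hold back activation of latent transforming growth factor beta, was the only member called lower. It read 362.3, 390.5 and 381.4 in Het_3M and 341.9, 306.3 and 252.6 in KO_3M. It read 383.9, 429.3 and 373.0 in Het_12M, and 258.3, 255.5 and 256.2 in KO_12M. The knockout arrays were below the heterozygous arrays at both ages, and the 3 KO_12M mice nearly coincided. At 12 months the mean signal was 64.9% of the heterozygous mean, with a log2 fold change of -0.59 ± 0.13 (adjusted p = 0.00757). At 3 months it was 79.4%, and the change of -0.33 ± 0.13 was not called (adjusted p = 0.0818, 95% interval -0.60 to -0.05). Without KO_3M mouse 1 the 3-month difference was called (-0.42, adjusted p = 0.0467).

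Fibronectin (Fn1), the adhesive glycoprotein of plasma and matrix, showed no called difference on either probe set. The leading one, 1426642_at, read 2707.1, 2387.8 and 2696.9 in Het_3M, and 3336.3, 3149.4 and 2782.7 in KO_3M. It read 2651.7, 2610.8 and 2681.3 in Het_12M and 2995.7, 2955.3 and 2245.2 in KO_12M. The KO_3M mice were all above the Het_3M mice, and KO_12M mouse 3 was below every Het_12M mouse. The changes were 0.25 ± 0.13 (adjusted p = 0.191, 95% interval -0.03 to 0.52) and 0.03 ± 0.13 (adjusted p = 0.919, 95% interval -0.24 to 0.31). The dim probe set 1437218_at ranged from 60.0 to 127.5 over the 12 arrays, with overlapping groups and changes of -0.05 ± 0.25 and -0.02 ± 0.25 (adjusted p = 0.909 and 0.979).

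Fibulin-3 (Efemp1, 1427183_at), an elastic fibre-associated glycoprotein, was dim. It read 24.1, 30.9 and 44.9 in Het_3M and 63.4, 43.3 and 81.5 in KO_3M. It read 39.0, 31.2 and 39.5 in Het_12M and 47.8, 65.8 and 61.9 in KO_12M. The genotypes overlapped at 3 months and not at 12 months. Neither difference was called, at 0.67 ± 0.26 (adjusted p = 0.0754, 95% interval 0.12 to 1.21) and 0.50 ± 0.26 (adjusted p = 0.268, 95% interval -0.05 to 1.04). The 3-month difference was called with quantile normalization (0.79, adjusted p = 0.0371), with median scaling (0.82, adjusted p = 0.031) and without the intensity trend (0.67, adjusted p = 0.0343). Only 3 of the 12 arrays reached their own median for this probe set, the smallest number that the filter accepts, and all 3 were knockout arrays. Efemp1 therefore entered the test only through the genotype in which it read higher, and neither its overlap nor its fold changes are independent of that filter.

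Versican (Vcan), the large hyaluronan-binding chondroitin sulfate proteoglycan, has 3 probe sets, which ranged from 1.5 to 34.5 and never reached an array's median. The highest values were those of 1427256_at in KO_12M, at 14.7, 20.3 and 34.5, against 5.7, 4.5 and 8.0 in Het_12M. Fitted by limma without the filter on dim probe sets, this difference was 0.80 ± 0.22 (adjusted p = 0.048), where 5.29% of all probe sets were called. The other 2 probe sets were not called at either age. These signals are near the floor, and the array of KO_12M mouse 3, which read 34.5, had a higher floor. Its 10th percentile was 9.4, against 5.8 to 6.5 in Het_12M.

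**Figure D2:**
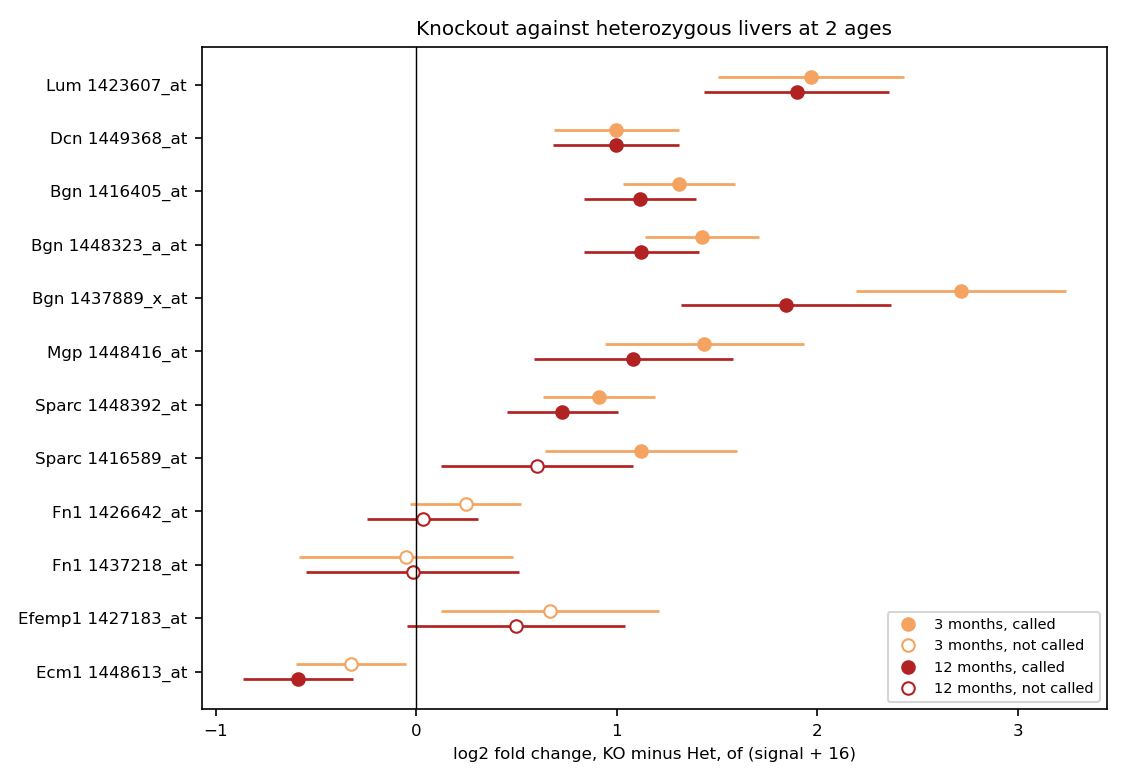
Log2 fold change of (signal + 16), knockout minus heterozygous, for the 12 tested member probe sets at 3 months (light) and 12 months (dark). Points are limma estimates from 3 mice per group, lines are 95% intervals, and filled points were called. Bgn 1437889_x_at is farthest right at 3 months (2.72), Ecm1 alone is called left of 0 (-0.59 at 12 months), and both Fn1 probe sets sit near 0.

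Few members were called between ages, and the counts were near the shares over all tested probe sets. The difference between genotypes, 12-month value less 3-month value, was below 0 for 11 of the 12 probe sets, ranging from -0.87 to 0.03 against a median of 0.06 over all tested probe sets, but 0 were called by limma, where 0.717% of all tested probe sets were. At an unadjusted p under 0.05 there was 1, Bgn 1437889_x_at (-0.87 ± 0.35, adjusted p = 0.237). In heterozygous livers 0 of the 12 were called between 3 and 12 months (1.15% of all tested probe sets), and Lum alone had an unadjusted p under 0.05 (0.46 ± 0.22, adjusted p = 0.302). In knockout livers 1 of the 12 was called (8.94% of all tested probe sets), Sparc 1416589_at, which fell by 0.82 ± 0.23 (adjusted p = 0.0353). That call did not hold without KO_3M mouse 1 (-0.63, adjusted p = 0.143), without KO_12M mouse 3 (-0.60, adjusted p = 0.139) or under 10 other alternatives. The comparisons at the 2 ages and between ages share arrays.

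The scan runs touched the 12-month calls. With the run as a fixed block, 7 of the 12 probe sets were called at 3 months, where 3.21% of all tested probe sets were. Sparc 1448392_at (1.00, adjusted p = 0.0522) was not called. At 12 months only Bgn 1416405_at was called (1.51 ± 0.23, adjusted p = 0.00692), where 0.701% of all tested probe sets were. The estimates were close to those without the block for Lum (1.94 ± 0.41, adjusted p = 0.0517), Dcn (0.94 ± 0.27, adjusted p = 0.159) and Ecm1 (-0.68 ± 0.26, adjusted p = 0.306), with larger errors. Mgp moved most among the called probe sets, to 1.75 ± 0.42 (adjusted p = 0.0779). Fn1 1426642_at moved to 0.68 ± 0.20 at 3 months (adjusted p = 0.0783) and 0.26 ± 0.20 at 12 months (adjusted p = 0.713). Fn1 1437218_at moved to -0.59 ± 0.45 at both ages (adjusted p = 0.489 and 0.713), and none of these was called. In the only run with both genotypes, 2 KO_12M mice were set against 2 Het_3M mice, so ages differed. There Lum was higher by 2.46 on the log2 scale, Mgp by 1.59, Dcn by 1.14, Bgn 1416405_at by 1.24 and Sparc 1448392_at by 0.83, and Ecm1 fell by 0.56, without overlap between the mice and with no test. The other 2 runs held 1 genotype each. In 1 of them the Het_12M mice were scanned with Het_3M mouse 1, whose source label conflicts on age. In the other the KO_3M mice were scanned with KO_12M mouse 3. In the blocked fit each of these runs was linked to the rest only through that 1 mouse. A call made with the block therefore depends on 1 mouse, and genotype and scan run cannot be fully told apart. For Bgn 1416405_at, Het_3M mouse 1 had the highest signal of all heterozygous mice (429.8).

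**Figure D3:**
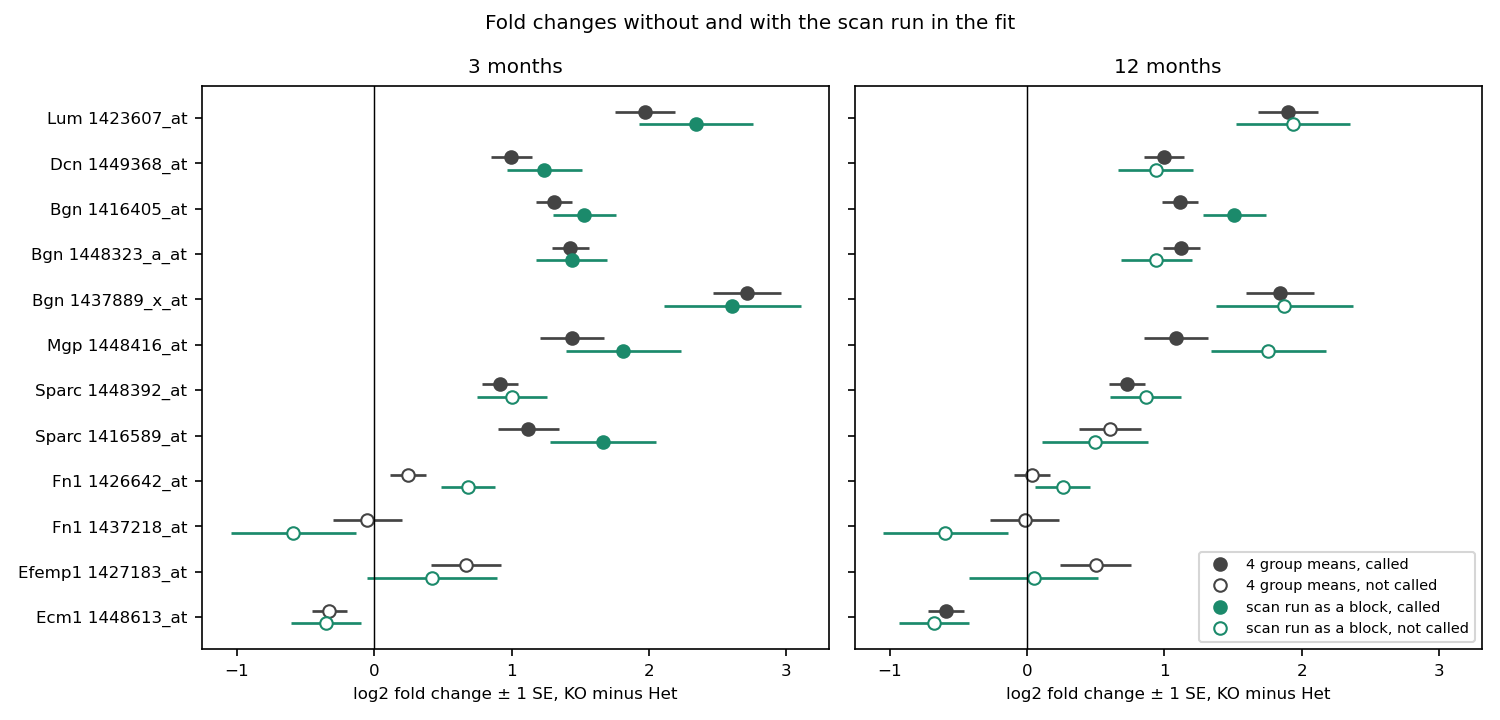
Log2 fold change ± 1 SE, knockout minus heterozygous, of the 12 tested member probe sets at 3 months (left) and 12 months (right). Grey points come from the fit with 4 group means, green points from the fit with the scan run as a block, and filled points were called. Green lines are longer, and at 12 months only Bgn 1416405_at (1.51) is filled in green.

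Other genes of proteoglycans and matrix glycoproteins were counted over each gene's leading probe set. Of 75 listed genes, 64 had a probe set and 33 were tested. At 3 months 11 rose, 3 fell and 19 were not called, where 9.63% of all leading probe sets were called higher and 11.9% lower. At 12 months 10 rose, 1 fell and 22 were not called, against 6.02% and 4.08%. The median log2 fold change of the 33 was 0.08 at 3 months, against -0.06 over all leading probe sets, and 0.33 at 12 months, against -0.00. For 4 of the 33 (Omd, Cd44, Ccn2 and Smoc2) no heterozygous array reached its median, and for 2 (Acan and Gpc6) no knockout array did. These 6 genes entered the test through 1 genotype alone, so their counts and sizes of change are not independent of the filter. Others, such as Fbln5 and Comp, reached the median on fewer than 3 arrays of 1 genotype and needed the other genotype to pass.

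Among small leucine-rich proteoglycans, 2 of 12 listed genes were tested, and both rose at both ages. Prelp, which anchors basement membranes to connective tissue, rose by 1.09 ± 0.19 at 3 months and 0.79 ± 0.19 at 12 months (adjusted p = 0.000847 and 0.0124), although its probe set may bind several transcripts. Omd, osteomodulin, which is known from bone matrix, was at 6.2 to 17.7 in Het_3M and 27.2 to 57.7 in KO_3M, and at 6.0 to 15.9 in Het_12M and 85.5 to 115.2 in KO_12M. Its changes were 1.20 ± 0.32 (adjusted p = 0.0155) and 2.14 ± 0.32 (adjusted p = 0.000449). Omd passed the filter only through knockout arrays, so these changes are not independent of the filter.

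The list of large and basement membrane proteoglycans also held the receptor Cd44 and the granule proteoglycan Srgn. Of its 7 tested genes, 3 rose at 3 months and 2 at 12 months, and 0 fell. Hspg2, Agrn, Acan and Cspg4 were not called at either age. Cd44, a hyaluronan receptor, rose by 1.29 ± 0.26 and 1.20 ± 0.26 after passing the filter only through knockout arrays, and Srgn, serglycin of haematopoietic cell granules, by 0.55 ± 0.17 and 0.72 ± 0.17. Prg4, lubricin, rose by 0.42 ± 0.14 at 3 months. Of 6 cell surface proteoglycans, Sdc1, the heparan sulfate carrier of epithelial cells, rose by 0.86 ± 0.14 and 0.61 ± 0.14. Its relatives went the other way where called, with Sdc3 at -0.65 ± 0.15 and Sdc2 at -0.53 ± 0.12 at 3 months and Sdc4 at -0.98 ± 0.27 at 12 months.

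Of 9 tested elastic fibre and microfibril genes, 1 rose at both ages and 0 fell. That gene was Fbln5, fibulin-5, which organises elastic fibres, with changes of 2.03 ± 0.28 and 1.34 ± 0.28 (adjusted p = 0.000137 and 0.00578). Fbln5 reached the array median on 1 heterozygous and 6 knockout arrays. It could pass the filter only with knockout arrays, so these changes are not independent of the filter. Of 9 matricellular and adhesive glycoproteins, 4 rose at both ages. Ccn2, connective tissue growth factor, rose by 2.32 ± 0.31 and 1.11 ± 0.31, Tgfbi, a collagen- and integrin-binding protein, by 1.87 ± 0.15 and 1.68 ± 0.15, and Smoc2, a relative of SPARC, by 1.84 ± 0.23 and 1.64 ± 0.23. Ccn2 and Smoc2 passed the filter only through knockout arrays. Comp, a thrombospondin of cartilage, fell by 0.94 at 3 months (SE 0.22, adjusted p = 0.0078). It reached the array median on 6 heterozygous and 2 knockout arrays, so this fall is not independent of the filter either.

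**Figure D4:**
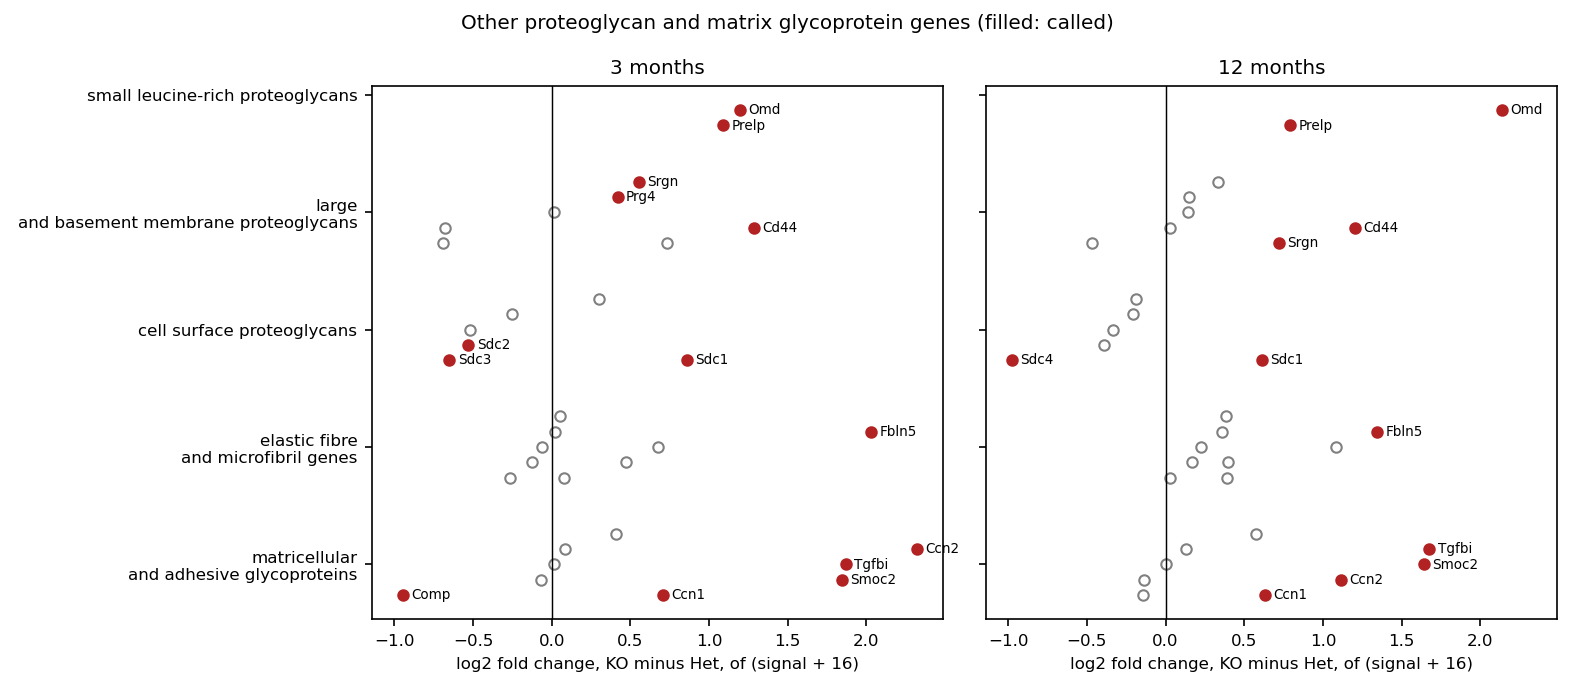
Log2 fold change of (signal + 16), knockout minus heterozygous, at 3 months (left) and 12 months (right), for the 33 tested genes of 5 lists, 1 point per gene. Filled points were called and carry the gene's symbol; open points were not called. Fbln5, Tgfbi, Smoc2, Ccn2, Omd and Cd44 lie above 1 at both ages, and 19 of 33 points are open at 3 months and 22 at 12 months.

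Markers of several cell types were counted in the same way. Of all leading probe sets, 9.63% were called higher and 11.9% lower at 3 months, and 6.02% and 4.08% at 12 months. Of 13 tested markers of stellate cells, portal fibroblasts and myofibroblasts, 6 rose at 3 months and 4 at 12 months, and 0 fell. Their summed signal over 18 genes was 1843 to 1959 in Het_3M against 3135 to 4271 in KO_3M, and 1970 to 2270 in Het_12M against 2969 to 3333 in KO_12M. Such sums weigh bright genes most, and the mean of Col3a1 alone was 188 in Het_3M and 1080 in KO_3M. Among the 7 not called at 3 months, Acta2 (145 to 111), Des (65.4 to 48.1), Gfap (79.1 to 52.5) and Ngfr (68.5 to 55.5) had lower means in knockout livers. Eln, also not called, had a higher mean (169 to 179). At 12 months the means of Acta2 (160 to 180), Des (50.7 to 69.3) and Eln (178 to 207) were higher in knockout livers. Those of Ngfr (97.2 to 53.4) and Gfap (67.9 to 67.1) were lower. Of 10 tested macrophage and Kupffer cell markers, 8 rose and 1 fell at 3 months, and 5 rose at 12 months. Their sum over 11 genes was 2274 to 2579, 4584 to 7768, 2584 to 2961 and 4891 to 5467 in the same order of groups. Of 8 cholangiocyte markers with a probe set, 6 were too dim to test, and Epcam and Krt23, which passed the filter only through knockout arrays, were called higher at 3 months and not at 12 months, with sums over 8 genes of 111 to 175, 352 to 380, 106 to 134 and 219 to 583. Of 10 hepatocyte markers, 2 fell at 3 months and 3 at 12 months, and the sum was 58255 to 61790, 53111 to 60909, 53836 to 58558 and 32483 to 51637. Markers of smooth muscle (1 tested) and mesothelial cells (0 tested) were mostly dim. Of 8 endothelial markers 1 rose and 1 fell at 3 months, near the shares over all leading probe sets, and 0 were called at 12 months. No marker of these lists lay below the 10th percentile on all arrays, and the part of these cells in the members' differences was not tested.

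The probe sets closest to each changed member were found by the root mean square difference, on the log2 scale and over the 12 arrays, after centring each probe set on its own mean. Closest to Lum were Anxa2 (0.285), Lgals3 (0.294) and Fbln5 (0.295), and closest to Dcn were Slc43a3 (0.143), Ywhaz (0.153) and Vcam1 (0.163). Closest to Bgn were Plpp2 (0.126), Ccnd1 (0.135) and Krt8 (0.172), and to Mgp Gsn (0.244), Vim (0.263) and Enc1 (0.289). Closest to Sparc were Cfl1 (0.131), Sdc1 (0.150) and Nup210 (0.152), and to Ecm1 Ndufa12 (0.102), Fech (0.107) and Slc46a1 (0.113). The median over all tested probe sets ran from 0.383 for Ecm1 to 1.07 for Lum. All share the same 12 arrays, so likeness is a description of them, and no member was among the 3 closest of another.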

How the data were processed

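Affymetrix MOE430A arrays measured liver RNA, 1 array for each of 12 male mice. The authors extracted the deposited intensity values, which are linear, with MAS 5.0 per the submitters' processing notes. The trimmed mean (2 to 98%) was 149.98 on all arrays, so they were already scaled, and array number limits the precision. Symbols came from the platform table, updated by gene ID to GRCm38.p6 RefSeq for 20364 probe sets.

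A probe set was tested when at least 3 of 12 arrays reached their own median. limma 3.58.1 (R 4.3.3, lmFit and eBayes with an intensity trend) was fitted to log2(signal + 16) with 1 mean for each of 4 groups (residual degrees of freedom 8) and adjusted over 12977 probe sets. The offset shrinks fold changes of dim probe sets. The code was tested on simulated data. Mouse numbers were not treated as pairing the samples. The named genes were all members, up to 3 called genes per list and direction, and the 3 probe sets closest to each leading called member. A gene's leading probe set is that of highest mean log2 signal. Scan runs come from the arrays' experiment descriptions. Alternatives covered scaling, offset, filter, trend, weights, blocks, RNA quality and left-out arrays. Python 3.11.15, pandas 2.3.3, numpy 2.4.6 and matplotlib 3.10.9 made tables and figures. The members and lists were chosen with earlier results of these data known. Nothing says whether the mice shared litters or cages.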

Additional observations from a re-analysis of the deposited data

How the results depend on the processing

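The 5 genes called higher in knockout livers, and the rise of their probe sets, kept their direction under every alternative run at both ages. At 3 months the count of called member probe sets was 8 and stayed between 7 and 9, apart from 5 when only leading probe sets were fitted, by construction a smaller set. At 12 months it was 8 and stayed between 6 and 9, apart from 1 with the scan run as a fixed block, which left 6 residual degrees of freedom and also lowered the calls over all tested probe sets from 1228 to 91. The cause of the lost calls was not tested. With the run as a random block (consensus correlation 0.022) the counts were unchanged. Leaving out single arrays gave 8 to 9 at both ages. Between ages in knockout livers, the count of 1 became 0 with quantile normalization, no filter, leading probe sets only, no intensity trend, only the groups compared, the actin ratio as covariate, without both mice of conflicting source label, and without both arrays of another fluidics script (an alternative chosen after seeing the data). It became 7 with median scaling and ranged from 0 to 2 with single arrays left out. Median scaling moved the median of all probe sets in that comparison from 0.10 to -0.20, of the knockout comparison at 3 months from -0.06 to 0.11, and of the interaction from 0.06 to -0.18. In that setting 2.2% of all tested probe sets were called higher between ages in knockout livers, of 20.4% called in either direction. The interaction and the age comparison in heterozygous livers gave 0 under every alternative run. Directions turned only for Fn1, whose values also moved away from 0 with the scan run as a fixed block, to 0.68 and 0.26 for 1426642_at and to -0.59 at both ages for 1437218_at. Fn1 1437218_at at 3 months was 0.0413 with quantile normalization, 0.11 with median scaling, 0.0703 with the actin covariate, 0.0866 without the other fluidics script, and -0.27 to 0.13 with single arrays left out. At 12 months it was 0.0673 with the actin covariate and -0.22 to 0.17 with single arrays left out. Fn1 1426642_at at 12 months was -0.0562 with median scaling, -0.0300 with the actin covariate and -0.0394 to 0.17 with single arrays left out. After centring each group on its mean, same-numbered mice of different groups correlated at -0.23 to 0.18 (18 pairs, median -0.03). Pairs of other numbers had a median of -0.01 (36 pairs). No pairing by number was seen, but with 3 mice per group this comparison cannot exclude it. With the replicate block the counts stayed at 8 and 8 for the knockout comparisons, 1 between ages in knockout livers and 0 otherwise. With 3 arrays per group, dim probe sets such as Efemp1 and Vcan limit what can be seen.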
